A study of Mus musculus with 46 samples.

Results

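The potassium channel genes described here are the protein-coding genes whose symbol begins with Kcn and a further letter and whose mean over all 46 libraries was at least 0.5 CPM, the count scaled to the total of its library. This rule gave 49 of the 94 protein-coding Kcn genes in a table of 53801 genes. Just inside the threshold were Kcnk6 at 0.6 CPM, Kcnh2 at 0.565 and Kcnc1 at 0.521. Just outside it were Kcna4 at 0.419 CPM, Kcng4 at 0.366 and Kcnj14 at 0.355. By role the 49 genes were 18 pore subunits of voltage-gated channels, 7 of calcium- or sodium-activated channels, 8 inward rectifiers, 7 two-pore-domain channels and 9 auxiliary subunits. Roles were assigned by symbol, not by the gating of each channel, and Kcnu1 was counted as calcium- or sodium-activated on that basis only. None of the 10 silent modifier subunits, which alter other voltage-gated channels and form none alone, reached the threshold.

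Potassium channels set the resting potential of a cell and return it to rest after depolarization. In glia, inward rectifiers and two-pore-domain channels hold the membrane near the potassium equilibrium potential, and inward rectifiers take part in clearing potassium from around active axons. Oligodendrocyte progenitors are known for delayed rectifier and A-type voltage-gated currents that become smaller as the cells mature, while inward rectifier currents persist.

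The libraries are bulk RNA-seq of cells sorted from mouse striatum for EGFP reporting the progenitor receptor PDGFRA. All groups, controls included, carried that reporter, and each library pooled the striata of mice of the same litter and genotype. R6/2 mice carry a transgene with the first exon of human HTT and an expanded CAG repeat, and zQ175 mice carry an expanded repeat knocked into the mouse Htt gene. In the R6/2 line there were 6 R6/2 and 5 wild-type littermate pools at 6 weeks, and 7 and 7 at 12 weeks. In the zQ175 line there were 6 zQ175 and 6 wild-type littermate pools at 12 weeks, and 5 and 4 at 1 year.

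Total expected counts ran from 23338185 to 49166260 per library. The sort was on the Pdgfra reporter, and Pdgfra itself averaged between 4.91 CPM (wild type, zQ175 line, 1 year) and 76.4 CPM (wild type, R6/2 line, 12 weeks). Summed over 10 markers, mature oligodendrocyte transcripts were far more abundant in every group than the 8 progenitor markers. In R6/2 pools at 12 weeks the mature markers summed to between 38734 and 49603 CPM against 97860 to 102856 in wild type, with 9 of 10 lower. The progenitor markers there summed to between 894 and 1486 CPM against 258 to 670, with 5 of 8 higher. In such bulk samples fewer cells of a type and less RNA per cell cannot be told apart, and the part of this shift in the results below was not tested.

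Levels below are CPM scaled by TMM over all 46 libraries, and levels of different genes are compared only per kb of exon. Averaged over the 8 group means, Kcna6 stood highest at 66.0 CPM per kb, followed by Kcnk13 at 63.7, Kcna1 at 52.2 and Kcnj10 at 42.5. Kcna6 and Kcna1 encode pores of Shaker-type delayed rectifiers, Kcnk13 a two-pore-domain background channel, and Kcnj10 the main glial inward rectifier. The next gene, the auxiliary subunit Kcnip3, was at 4.55 CPM per kb. Kcna6 held the highest level in all groups of the R6/2 line and Kcnk13 in all groups of the zQ175 line, so the order of the upper genes was not fixed. Next among the voltage-gated genes was Kcna2 at 3.62. Kcnj2 at 2.93 and Kcnj16 at 2.03 followed Kcnj10 among the inward rectifiers. Kcnk1 at 3.84 and Kcnk5 at 2.32 followed Kcnk13 among the two-pore-domain channels. The highest genes placed in the calcium- or sodium-activated role were Kcnu1 at 1.12, Kcnn1 at 0.571 and Kcnma1 at 0.241. After Kcnip3 the highest auxiliary genes were Kcnab2 at 1.07 and Kcne4 at 0.962.

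The summed level of the 49 genes was lower in R6/2 than in wild-type pools at both ages. At 12 weeks it was 206 ± 36.2 CPM per kb (SD, n = 7) in R6/2 and 380 ± 32.7 (SD, n = 7) in wild type. At 6 weeks it was 227 ± 36.9 (SD, n = 6) against 353 ± 51.2 (SD, n = 5). In the zQ175 line it was 241 ± 14.2 (SD, n = 6) against 275 ± 28.1 (SD, n = 6) at 12 weeks, and 182 ± 19.1 (SD, n = 5) against 246 ± 32.5 (SD, n = 4) at 1 year. Kcna6, Kcnk13, Kcna1 and Kcnj10 made up 88.3% of the sum in 12-week wild-type pools of the R6/2 line and 71.7% in R6/2 pools. The sums were not tested.

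**Figure D1:**
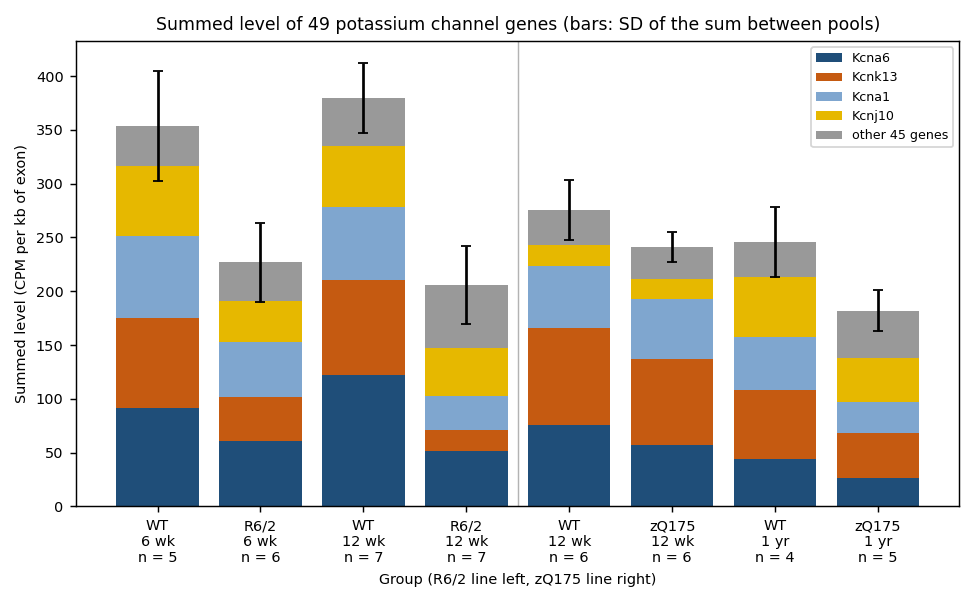
Stacked bars give the group mean level, in CPM per kb of exon, of Kcna6, Kcnk13, Kcna1, Kcnj10 and the other 45 potassium channel genes in the 8 groups, with the SD of the sum between pools. The R6/2 bar at 12 weeks reaches 206 against 380 in wild type, and at that age the segments of the named genes are smaller in R6/2 and the segment of the other genes is not.

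At 6 weeks, 3 of the 49 genes differed between R6/2 and wild-type pools. Kcnk13 and Kcna1 were lower and Kcnh7 was higher, by edgeR's quasi-likelihood test with Benjamini-Hochberg adjustment over all 14912 genes tested. Of all genes tested, 4.66% were called, 2.33% higher and 2.33% lower. The median log2 fold change of the 49 genes was 0.01, against 0.02 over all genes tested. Mature oligodendrocyte markers were lower in 8 of 10 cases at this age and summed to between 70746 and 98672 CPM in R6/2 against 135485 to 140202 in wild type, without overlap, and their part in these calls was not tested.

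Kcnk13 levels in the R6/2 pools at 6 weeks ran from 104 to 149 CPM (median 128). The 5 wild-type pools were at 214, 219, 282, 291 and 293 CPM. The groups did not overlap, and Kcnk13 fell 2.03-fold, a log2 fold change of -1.02 ± 0.13 (SE, adjusted p = 0.000657). Kcna1 ran from 197 to 297 CPM (median 242) in the R6/2 pools, and the wild-type pools were at 339, 342, 376, 376 and 384 CPM. The groups again did not overlap, and Kcna1 fell by 0.58 ± 0.10 on the log2 scale (SE, adjusted p = 0.00657).

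Kcnh7, a pore subunit of the ether-a-go-go-related family, ran from 8.97 to 12.8 CPM (median 10.6) in the R6/2 pools at 6 weeks. The wild-type pools were at 4.15, 5.82, 5.94, 6.51 and 8.16 CPM. All R6/2 pools lay above all wild-type pools, and Kcnh7 rose by 0.81 ± 0.19 on the log2 scale (SE, adjusted p = 0.0294). This call was lost in 7 of the 11 fits that left out a pool. Of the exon bases of Kcnh7, 4.57% are shared with Gca, a gene on the opposite strand at 79.2 CPM, and the library kit does not record the strand. Gca itself had a log2 fold change of 0.36 (adjusted p = 0.225), and reads of the shared bases cannot be told apart.

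Among the genes not called at 6 weeks, Kcna6 had a log2 fold change of -0.58 ± 0.21 (SE, adjusted p = 0.163). R6/2 replicate 1, at 150 CPM, lay far below the next R6/2 pool. Without that pool Kcna6 was called (log2 fold change -0.42, adjusted p = 0.00535). Kcnj10 had -0.79 ± 0.34 (SE, adjusted p = 0.261), with R6/2 pools from 83.0 to 301 CPM and wild-type pools from 137 to 531, so the groups overlapped. Kcna2, Kcnd2, Kcnj16, Kcnk1, Kcnip3, Kcnma1 and Kcnab1 lay between -0.34 and 0.64 on the log2 scale at 6 weeks.

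At 12 weeks, 31 of the 49 genes differed between R6/2 and wild-type pools, 20 higher and 11 lower. Of the 14952 genes tested, 38.1% were called, 19% higher and 19.1% lower. Of the 20 higher genes 18 rose at least 2-fold, and of the 11 lower genes 5 fell at least 2-fold. Over all genes tested, 1479 of the 2848 higher genes and 813 of the 2856 lower genes changed at least 2-fold. The median log2 fold change was 0.37 over the 49 genes and -0.03 over all genes tested. By role, 14 of 18 voltage-gated genes were called (10 higher, 4 lower). So were 6 of 7 calcium- or sodium-activated genes (4 higher, 2 lower), 5 of 8 inward rectifiers (3 higher, 2 lower), 3 of 7 two-pore-domain genes (1 higher, 2 lower) and 3 of 9 auxiliary genes (2 higher, 1 lower).

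**Figure D2:**
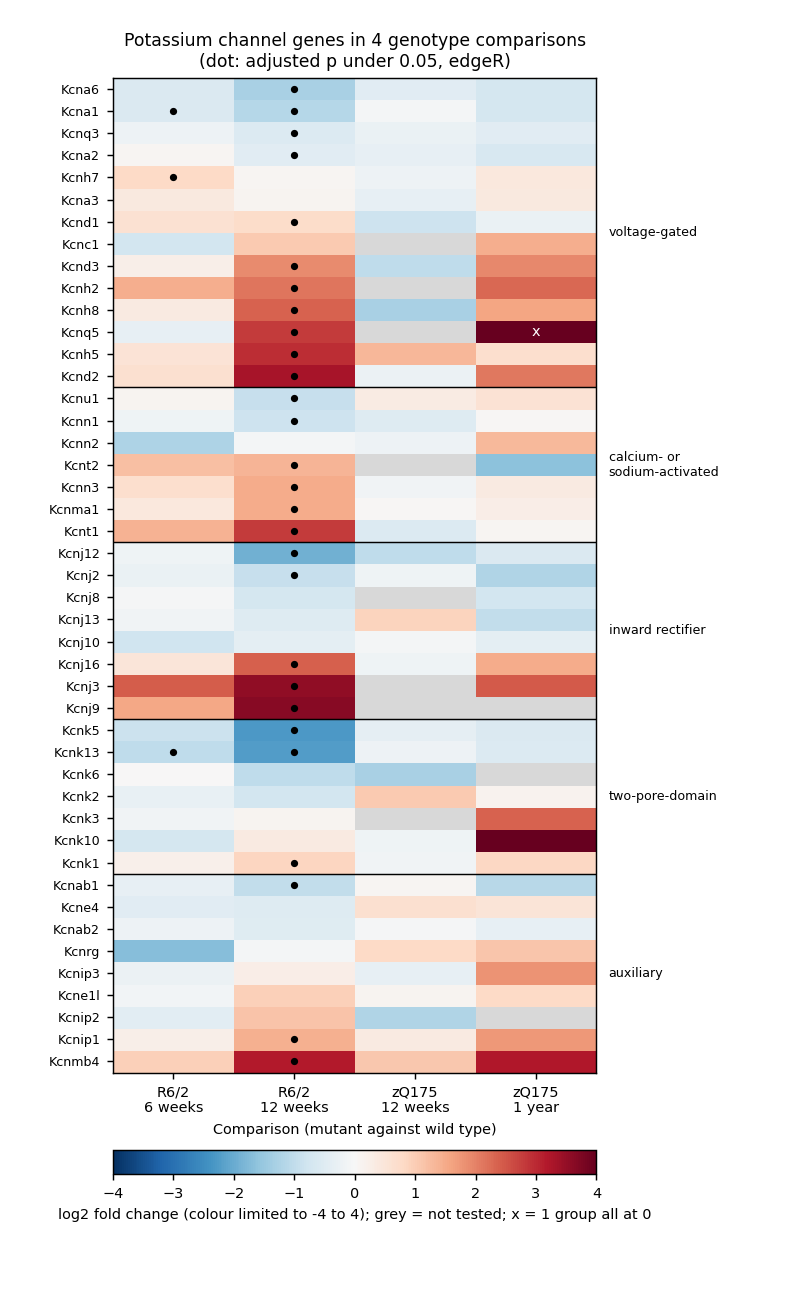
Each cell gives the log2 fold change of mutant against wild-type pools for 1 of 45 potassium channel genes (rows, grouped by role) in 1 of the 4 genotype comparisons (columns), with a dot where the adjusted p was under 0.05. Dots stand on 3 of these genes at 6 weeks and 28 at 12 weeks in R6/2, and on none in zQ175.

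The abundant Shaker-type genes fell together. Kcna6 ran from 150 to 426 CPM (median 324) in R6/2 pools at 12 weeks and from 536 to 839 CPM (median 752) in wild type. The groups did not overlap, and Kcna6 fell 2.47-fold (log2 fold change -1.30 ± 0.17, SE, adjusted p = 1.04e-05). Kcna1 ran from 122 to 172 CPM (median 154) against 287 to 371 CPM (median 322), again without overlap. It fell by 1.15 ± 0.09 on the log2 scale (SE, adjusted p = 2.69e-08). Kcna2 fell less, by 0.46 ± 0.11 (SE, adjusted p = 0.00266), from wild-type pools at 45.4 to 78.8 CPM to R6/2 pools at 36.7 to 49.4 CPM, which overlapped. Kcnab1, a cytoplasmic beta subunit of Shaker-type channels, fell by 0.98 ± 0.21 (SE, adjusted p = 0.00141). Kcnab1 shares 2.34% of its exon bases with the antisense gene A330015K06Rik, which stood at 22.9 CPM and fell by 1.20 (adjusted p = 2.66e-05), so reads of the shared bases cannot be told apart. This limit holds for Kcnab1 in every comparison. Kcnq3, a subunit of the M-current channel, fell by 0.53 ± 0.12 (SE, adjusted p = 0.00204). Kcna3, a Shaker-type gene at a lower level, had a log2 fold change of 0.12 (adjusted p = 0.737).

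The other called voltage-gated genes were higher in R6/2. Kcnd2, the pore of an A-type channel, ran from 24.7 to 38.4 CPM (median 33.2) in R6/2 pools and from 0.588 to 5.03 CPM (median 3.47) in wild type. The lowest R6/2 pool was several times the highest wild-type pool, and Kcnd2 rose 9.87-fold (log2 fold change 3.30 ± 0.34, SE, adjusted p = 7.66e-07). Its relative Kcnd3 rose by 1.90 ± 0.44 (SE, adjusted p = 0.00232). Also higher were the M-current subunit Kcnq5 (log2 fold change 2.79) and the ether-a-go-go family members Kcnh5 (2.96) and Kcnh8 (2.37). Kcnh2 and Kcnd1, at 2.15 and 0.72, were called with higher adjusted p (0.0249 and 0.0226) and are outside the naming rule; they are named after their values were seen. Kcnh7, called at 6 weeks, had a log2 fold change of 0.09 (adjusted p = 0.671) at 12 weeks.

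The genes placed by symbol in the calcium- or sodium-activated role were mostly higher. Kcnt1, a sodium-activated channel, ran from 3.78 to 12.0 CPM (median 7.84) in R6/2 and from 0.0485 to 1.76 CPM (median 1.21) in wild type, and rose by 2.81 ± 0.43 on the log2 scale (SE, adjusted p = 5.61e-05). Its relative Kcnt2 rose by 1.36 ± 0.39 (SE, adjusted p = 0.0113). Kcnma1, the pore of the large-conductance calcium-activated channel, ran from 6.25 to 10.2 CPM against 1.33 to 5.71 CPM. The groups did not overlap, and Kcnma1 rose by 1.49 ± 0.26 (SE, adjusted p = 0.00021). Kcnmb4, a beta subunit of the same channel, ran from 3.13 to 6.85 CPM (median 4.90) against 0.0252 to 1.02 CPM (median 0.499) and rose by 3.16 ± 0.48 (SE, adjusted p = 5.59e-05). Among the small-conductance channels Kcnn1 fell by 0.84 (adjusted p = 0.00913) and Kcnn2 was not called (-0.08, adjusted p = 0.887). Kcnn3, named after its values were seen, rose by 1.48 (adjusted p = 0.021). Kcnu1, a channel of the large-conductance family best known from sperm, fell by 0.91 ± 0.20 (SE, adjusted p = 0.00161).

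The inward rectifiers divided. Kcnj16, whose product joins that of Kcnj10 in a shared channel, ran from 15.1 to 32.8 CPM (median 28.3) in R6/2 pools at 12 weeks and from 2.74 to 8.87 CPM (median 3.95) in wild type. All 7 R6/2 pools lay above all wild-type pools, and Kcnj16 rose 5.25-fold (log2 fold change 2.39 ± 0.26, SE, adjusted p = 1.3e-06). Kcnj10 ran from 131 to 374 CPM (median 272) against 211 to 496 CPM (median 263). The groups overlapped widely, and Kcnj10 was not called (-0.38 ± 0.25, SE, adjusted p = 0.246). The G protein-gated genes Kcnj3 and Kcnj9 rose by 3.56 ± 0.54 (SE, adjusted p = 4.85e-05) and 3.65 ± 0.80 (SE, adjusted p = 0.00147). For Kcnj3 the R6/2 pools ran from 3.62 to 6.92 CPM and the wild-type pools from 0 to 0.982 CPM. Kcnj2, a strong inward rectifier, ran from 4.89 to 20.5 CPM against 22.6 to 34.6 CPM and fell by 0.93 ± 0.21 (SE, adjusted p = 0.00187). Kcnj12, of the same subfamily and named after its values were seen, fell by 1.91 (adjusted p = 0.0207).

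Among the two-pore-domain genes, Kcnk13 and Kcnk5 were the lowest against wild type. Kcnk13 ran from 45.1 to 81.1 CPM (median 56.6) in R6/2 pools at 12 weeks and from 244 to 288 CPM (median 281) in wild type. The highest R6/2 pool was far below the lowest wild-type pool, and Kcnk13 fell 4.74-fold (log2 fold change -2.24 ± 0.12, SE, adjusted p = 3.88e-10). Kcnk5, a channel opened by alkaline pH, ran from 1.64 to 4.28 CPM (median 2.76) against 8.55 to 16.3 CPM (median 14.6). It fell 4.9-fold without overlap (log2 fold change -2.29 ± 0.21, SE, adjusted p = 2.33e-07). Kcnk1, a weak background channel, rose by 0.87 ± 0.20 (SE, adjusted p = 0.00251), with R6/2 pools at 9.67 to 16.3 CPM and wild-type pools at 4.30 to 11 CPM. Kcnk2, a mechanically gated channel, was not called (-0.72, adjusted p = 0.0545). Of the auxiliary genes not yet named, Kcnip1, a calcium-binding partner of A-type pores, rose by 1.43 ± 0.34 (SE, adjusted p = 0.00315). Its relative Kcnip3 was not called (0.27, adjusted p = 0.475), with R6/2 pools at 18.3 to 30.1 CPM and wild-type pools at 8.55 to 31.0.

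Some of these genes are neighbours in the genome, by the GENCODE M21 annotation of GRCm38. Kcna1 (chr6:126640397-126646384, minus strand) and Kcna6 (chr6:126708329-126740674, minus strand) lie near each other and both fell in R6/2 at 12 weeks. Kcnj16 (chr11:110968033-111027968, plus strand) and Kcnj2 (chr11:111066164-111076821, plus strand) are also near each other, and Kcnj16 rose while Kcnj2 fell. Kcnj9 (chr1:172320501-172329318, minus strand) rose, and Kcnj10 beside it (chr1:172341210-172374085, plus strand) was not called. Kcna2 (chr3:107101146-107115005, plus strand) fell, and Kcna3 (chr3:107036169-107038070, plus strand) was not called. Kcnk13 lies at chr12:99964499-100062682 on the plus strand and Kcnd2 at chr6:21215503-21729805 on the plus strand.

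**Figure D3:**
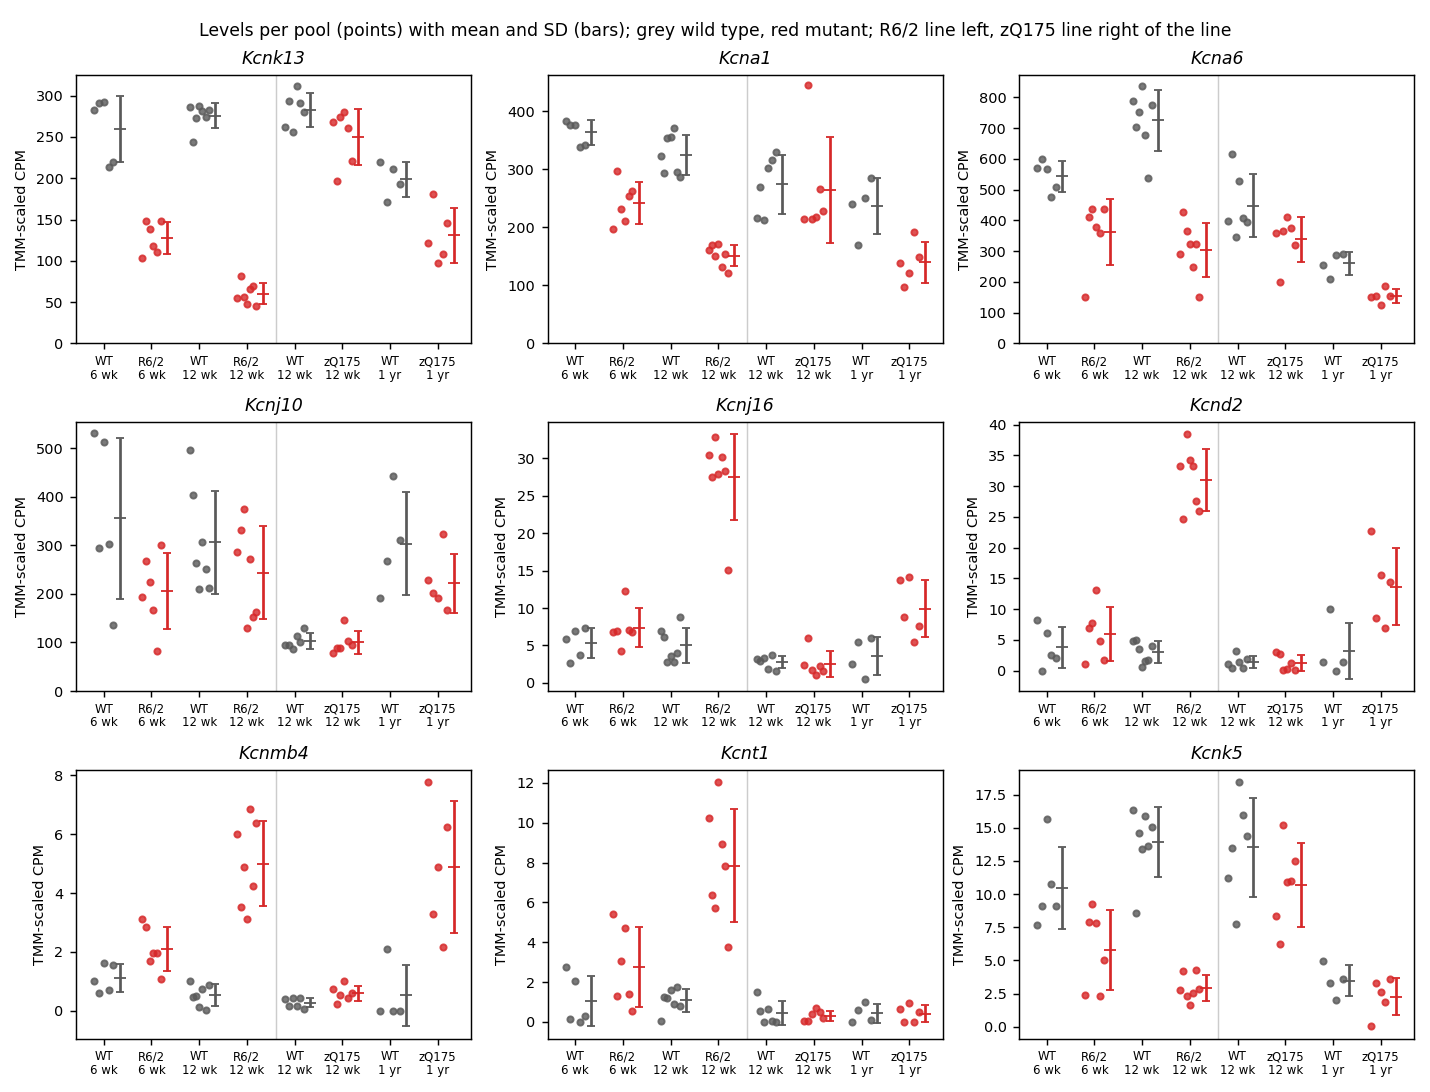
Points give the TMM-scaled CPM of 9 potassium channel genes in every pool of the 8 groups, with the mean and SD beside them, on linear axes. At 12 weeks the R6/2 pools of Kcnk13 lie at 45.1 to 81.1 CPM below all wild-type pools, those of Kcnj16 and Kcnd2 lie above all wild-type pools, and those of Kcnj10 overlap with wild type.

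The direction of change at 12 weeks went with the wild-type level. The 11 lower genes had wild-type means from 2.23 to 816 CPM (median 30.0), and 7 of them exceeded 10 CPM. The 20 higher genes had wild-type means from 0.201 to 7.78 CPM (median 1.07), with 15 under 2 CPM and 0 above 10. The wild-type pools enter both the level and the fold change. Genes low in wild type can also have met the membership rule through their R6/2 level, which favours higher genes at low wild-type levels. The pattern was not examined over all genes. Per kb of exon the wild-type medians were 4.61 CPM for the lower genes and 0.151 for the higher genes. A gene at a low level is called only for a large change, so low genes with small changes are not in these counts.

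**Figure D4:**
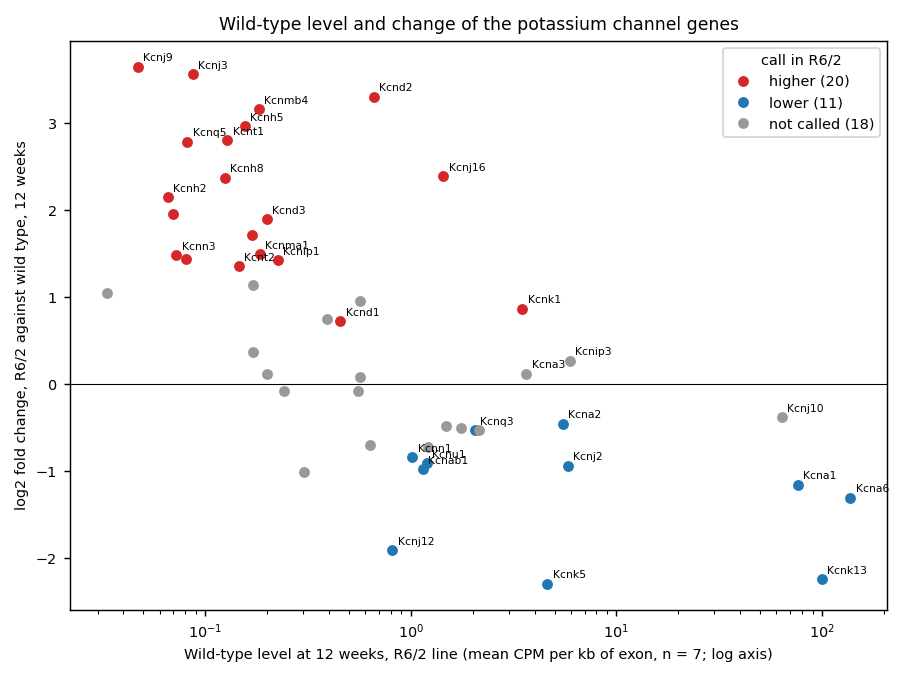
For each of the 49 potassium channel genes, the wild-type level at 12 weeks in CPM per kb of exon (log axis) is plotted against the log2 fold change in R6/2, coloured by call. The 20 higher genes have a median of 0.151 and the 11 lower genes a median of 4.61. The sets overlap, with higher genes up to 3.48 and lower genes down to 0.812.

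Markers of other cells differed between the same groups. Neuron markers summed to between 84.0 and 170 CPM in R6/2 pools at 12 weeks and to between 46.8 and 62.7 in wild type. Of 9 neuron markers tested 4 were higher and 1 lower, while Syt1, Rbfox3, Stmn2, Gad2, Drd1 and Drd2 averaged under 1 CPM in the R6/2 pools. The part of neuronal RNA in the higher calls was not tested. Of 8 astrocyte markers 2 were higher and 5 lower, and their sums overlapped, at 494 to 710 CPM in R6/2 and 384 to 570 in wild type; their part in the results for the glial rectifiers Kcnj10 and Kcnj16 was not tested. Microglia, endothelium, mural and fibroblast markers were lower in 3 of 8, 3 of 6, 4 of 6 and 6 of 6 cases. With the mean level of these 4 lists as a covariate, 16 of the 49 genes were called (10 higher, 6 lower), 15 of them among the 31. Among the genes within the naming rule, Kcnd3, Kcnma1, Kcnq5, Kcnh5, Kcnip1, Kcnh8, Kcnt2, Kcnab1, Kcnu1, Kcnq3 and Kcnn1 then missed the threshold, while Kcnk13, Kcna1, Kcna6, Kcnk5, Kcnd2 and Kcnj16 did not. A lost call was not always a smaller value. With the covariate Kcnq5 had a log2 fold change of 2.85 (adjusted p = 0.0502), Kcnq3 -0.54, Kcnu1 -0.79 and Kcnab1 -0.78, near those without it. Further from theirs were Kcnn1 at -0.33, Kcnd3 at 1.20, Kcnh5 at 1.83, Kcnh8 at 1.71, Kcnma1 at 1.07, Kcnip1 at 0.96 and Kcnt2 at 1.03.

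Sex composition differed as well: Y-linked transcripts summed to at most 1 CPM in 4 of 7 R6/2 pools at 12 weeks and in 0 of 7 wild-type pools. With Y-linked transcripts as a covariate 26 genes were called (17 higher, 9 lower), and Kcnab1 (-0.65, adjusted p = 0.0977), Kcnn1 (-0.80, adjusted p = 0.0929) and Kcnt2 (0.96, adjusted p = 0.152) were among those not called. The value of Kcnn1 was close to the -0.84 without the covariate. In a single model of all 8 groups, 19 were called (11 higher, 8 lower), all among the 31. Without wild-type replicate 7 Kcnh8 was at 3.11, and without wild-type replicate 6 Kcnj9 was at 4.29, both still called.

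Upstream sequence was compared for the genes that moved together. RefSeq promoter windows on GRCm38.p6, 250 bases ending just before the start site, were found for 37 of the 49 genes, 54 windows in all. Both strands were searched for the TCF/LEF motif (CTTTGAT or CTTTGAA), the SOX motif (ACAAAG or ACAATG) and the E-box CAGCTG. The TCF/LEF motif and the reverse complement of ACAAAG open with the same letters and end differently, so no site counts as both. The TCF/LEF motif, bound by the family of TCF7L2 named in the series title, was in 3 of 37 genes (8.11%) and in 7.80% of the 16521 protein-coding genes with a window. The SOX motif was in 10 (27.0%) against 25.2%. The E-box, which basic helix-loop-helix factors of the oligodendrocyte lineage bind, was in 12 (32.4%) against 14%. Of the 8 lower genes with a window, 3 held the E-box (37.5%), as did 4 of the 15 higher genes (26.7%) and 5 of the 14 genes not called (35.7%). The median GC content of the windows was 59.4% against 56% over all windows. A match is a description of letters only. The windows below show the gene with the lowest adjusted p, 2 lower genes with an E-box, and 2 of the 3 inward rectifiers that rose, with the motif in capitals. Kcnk13 (chr12:99964249-99964498, plus strand) held none of the motifs. Kcna2 (chr3:107101317-107101566, plus strand), Kcnj2 (chr11:111065914-111066163, plus strand) and Kcnj3 (chr2:55435720-55435969, plus strand) held the E-box, and a window of Kcnj16 (chr11:110997237-110997486, plus strand) the TCF/LEF motif in reverse complement. Kcnj16 has 4 windows, of which 1 other held the E-box. The window of Kcnj9, the other inward rectifier that rose, held none of the motifs and is not shown.
Kcnk13: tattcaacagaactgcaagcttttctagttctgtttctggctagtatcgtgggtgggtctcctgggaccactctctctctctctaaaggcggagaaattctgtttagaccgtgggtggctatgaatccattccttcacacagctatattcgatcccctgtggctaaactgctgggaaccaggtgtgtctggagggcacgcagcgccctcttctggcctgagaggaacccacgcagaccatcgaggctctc
Kcna2: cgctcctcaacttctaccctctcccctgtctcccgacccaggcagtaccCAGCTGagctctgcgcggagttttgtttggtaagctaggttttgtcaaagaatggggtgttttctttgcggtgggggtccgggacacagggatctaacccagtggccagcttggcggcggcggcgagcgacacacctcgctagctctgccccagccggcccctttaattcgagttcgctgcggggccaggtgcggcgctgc
Kcnj2: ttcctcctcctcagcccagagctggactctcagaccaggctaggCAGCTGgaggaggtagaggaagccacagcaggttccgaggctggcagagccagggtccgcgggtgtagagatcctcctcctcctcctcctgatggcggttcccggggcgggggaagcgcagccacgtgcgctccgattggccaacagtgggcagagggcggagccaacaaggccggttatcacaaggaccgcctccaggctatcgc
Kcnj3: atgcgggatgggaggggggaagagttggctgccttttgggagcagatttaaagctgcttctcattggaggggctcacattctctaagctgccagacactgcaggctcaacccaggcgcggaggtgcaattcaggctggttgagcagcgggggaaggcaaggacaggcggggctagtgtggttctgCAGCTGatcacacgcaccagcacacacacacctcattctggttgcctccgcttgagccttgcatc
Kcnj16: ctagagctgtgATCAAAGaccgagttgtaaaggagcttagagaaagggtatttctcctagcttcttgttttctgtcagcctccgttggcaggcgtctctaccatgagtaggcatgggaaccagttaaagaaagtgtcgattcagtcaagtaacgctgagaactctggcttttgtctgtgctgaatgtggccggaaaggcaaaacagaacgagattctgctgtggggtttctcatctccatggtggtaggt

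In the R6/2 line the genotype difference changed with age for 6 of the 49 genes, against 6.04% of the 16513 genes tested. The interaction was negative for 4 (background 3.19%) and positive for 2 (2.85%). Kcnk13 fell further at 12 than at 6 weeks, by 1.21 ± 0.17 on the log2 scale (SE, adjusted p = 0.000125). For Kcna1 the interaction was -0.56 ± 0.14 (SE, adjusted p = 0.0127), and in a single model of all 8 groups -0.52 (adjusted p = 0.22). For Kcnj16 it was 1.93 ± 0.40 (SE, adjusted p = 0.00428). Kcnk5 (-1.44, adjusted p = 0.0381), Kcnmb4 (2.24, adjusted p = 0.0403) and Kcna2 (-0.52, adjusted p = 0.0416) were also called. The single model called 2 of the 49. Of the genes named, Kcnk5, Kcnmb4 and Kcna2 lost the call in 17, 14 and 14 of 25 fits that left out a pool. With the covariate of the 4 other cell type lists, Kcnj16 was at 1.23 (adjusted p = 0.127).

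The 6-week and 12-week comparisons share no library. Across the 49 genes their log2 fold changes had a Pearson r of 0.69 and a Spearman rho of 0.69, a description over genes that share a level at both ages. Of the 31 genes called at 12 weeks, 28 had the same sign at 6 weeks, 19 of the 20 higher and 9 of the 11 lower. The share over all genes was not computed, so this is not shown to be particular to potassium channel genes. Among those 28 genes the size was larger at 12 weeks for 27. The genes were chosen by their call at 12 weeks, which favours larger sizes at that age.

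**Figure D5:**
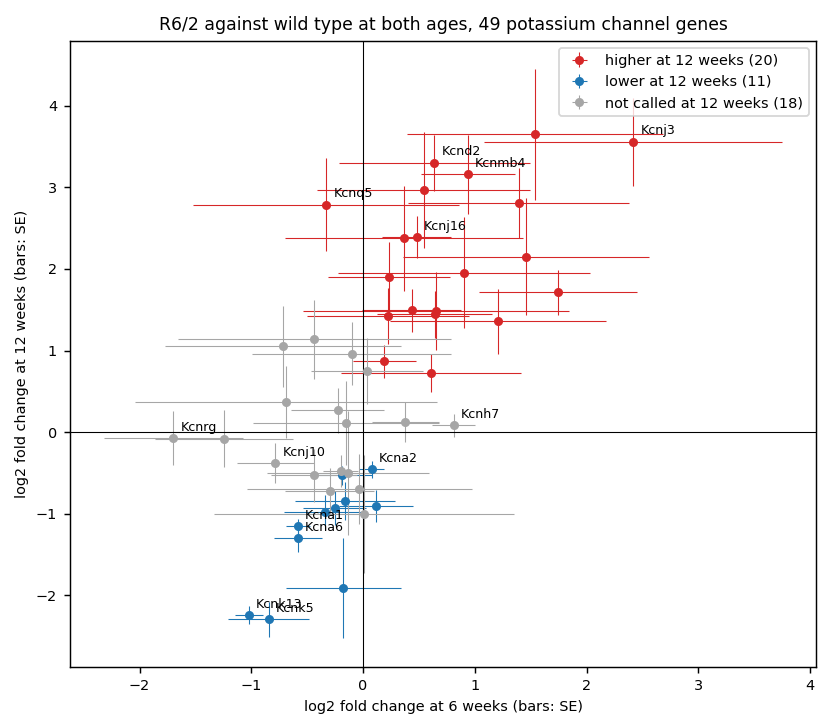
For each of the 49 potassium channel genes the log2 fold change of R6/2 against wild type at 6 weeks is plotted against that at 12 weeks, with SE bars, coloured by the call at 12 weeks. Kcnk13 lies at -1.02 and -2.24 and Kcnj16 at 0.48 and 2.39, and 28 of the 31 called genes share a sign at both ages.

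In zQ175 pools edgeR, fitted on the groups of each age, called no potassium channel gene at either age, and other fits called up to 10 at 1 year. At 12 weeks 39 of the 49 were tested and 0 called by edgeR, with 5 at an unadjusted p under 0.05; DESeq2 and limma voom also called 0. Of all 14372 genes tested, 0.0835% were called, 0.0487% higher and 0.0348% lower. Kcna6 had a log2 fold change of -0.44 ± 0.16 (SE, adjusted p = 0.229), with zQ175 pools from 201 to 410 CPM and wild-type pools from 345 to 617. Kcnk13 had -0.21 ± 0.09 (SE, adjusted p = 0.31), with zQ175 pools from 197 to 280 CPM and wild-type pools from 256 to 312. Both pairs of groups overlapped. Kcna1, Kcnj10, Kcnj16, Kcnk1, Kcnd2, Kcnip3, Kcnma1, Kcnab1 and Kcna2 lay between -0.34 and 0.09 on the log2 scale.

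At 1 year 44 of the 49 were tested and 0 called by edgeR, with 13 at an unadjusted p under 0.05. DESeq2 called 3 and limma voom 0. Of all 14951 genes tested, 0.00669% were called. Kcna6 levels were 124, 151, 154, 155 and 187 CPM in the 5 zQ175 pools and 210, 255, 286 and 291 CPM in the 4 wild-type pools. The groups did not overlap, and the log2 fold change was -0.71 ± 0.14 (SE, adjusted p = 0.108). Kcna6 was called with no filter on low counts (adjusted p = 0.0465), by DESeq2 (0.00155), in a single model of all groups (0.0219), with the other cell type covariate (0.0469) and without wild-type replicate 3 (0.0207). Kcna1 was at 97.5, 121, 139, 149 and 192 CPM against 170, 240, 250 and 285 CPM, with a log2 fold change of -0.71 ± 0.20 (SE, adjusted p = 0.184). It was called by DESeq2 (adjusted p = 0.0345) and in the single model (adjusted p = 0.00372). Kcnk13 was at 97.7, 108, 122, 146 and 181 CPM against 172, 193, 211 and 220 CPM (log2 fold change -0.56 ± 0.16, SE, adjusted p = 0.199), and 1 zQ175 pool overlapped with wild type.

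Several genes that rose in R6/2 at 12 weeks had values of the same sign in zQ175 at 1 year without passing the test. Kcnmb4 was at 2.18, 3.31, 4.89, 6.25 and 7.78 CPM in zQ175 and at 0, 0, 0 and 2.10 CPM in wild type (log2 fold change 3.21 ± 1.42, SE, adjusted p = 0.417). Kcnd2 was at 6.98, 8.50, 14.4, 15.6 and 22.7 CPM against 0, 1.45, 1.49 and 9.96 CPM (2.11 ± 0.93, SE, adjusted p = 0.417). In both genes the high wild-type value was that of replicate 3. Kcnj16 was at 5.48, 7.55, 8.74, 13.7 and 14.1 CPM against 0.555, 2.48, 5.45 and 6.02 CPM (1.50 ± 0.60, SE, adjusted p = 0.367), and the groups overlapped. Kcnk1 was at 13.6 to 16.9 CPM against 2.72 to 12.5 CPM, without overlap (0.83 ± 0.38, SE, adjusted p = 0.434). The remaining genes named throughout were Kcnip3 (1.81), Kcna2 (-0.65), Kcnab1 (-1.10), Kcnj10 (-0.40) and Kcnma1 (0.25), none called by edgeR on the groups of this age. A330015K06Rik, which shares exon bases with Kcnab1, was at -1.66 (adjusted p = 0.0838). In a single model of all 8 groups, whose spread is shared, 10 genes were called at 1 year (4 higher, 6 lower). These included Kcna2 (adjusted p = 0.0068), Kcnab1 (0.0185), Kcnip3 (0.0274) and Kcnj16 (0.0335) beside Kcna1 and Kcna6. Summed progenitor markers were 228 to 1291 CPM in zQ175 and 72.9 to 299 in wild type at that age, with 0 of 8 called by edgeR and 6 at an unadjusted p under 0.05. Mature oligodendrocyte markers summed to between 55648 and 65351 CPM in zQ175 and 72997 to 93374 in wild type, without overlap, with 0 of 10 called by edgeR and 6 at an unadjusted p under 0.05. The part of either list was not tested.

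The zQ175 comparisons share no library with the R6/2 comparison at 12 weeks. Over 44 genes tested in both, the zQ175 log2 fold changes at 1 year and those of R6/2 at 12 weeks had a Pearson r of 0.58 and a Spearman rho of 0.70. The zQ175 values at 1 year reached 7.63, and fitted folds against a group at 0 enter both coefficients. Kcnq5, for example, was at 0 in all 4 wild-type pools at 1 year. Of the 29 genes tested in both and called in R6/2, 25 had the same sign. For zQ175 at 12 weeks the values over 39 genes were 0.12 and 0.12, and 14 of 24 had the same sign. Neither the correlations nor the sign shares were computed over all genes.

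The genotype difference at 12 weeks was compared between the lines directly. It differed for 18 of the 49 genes, 11 with a more positive value in R6/2 and 7 with a more negative value. Of the 16221 genes tested, 21.2% were called, 10.8% more positive and 10.4% more negative. The named genes with negative values were Kcnk13 (-2.02 ± 0.15, SE, adjusted p = 3.91e-10), Kcnk5 (-1.91, adjusted p = 6.77e-05), Kcnu1 (-1.22, adjusted p = 0.000944), Kcna1 (-1.05, adjusted p = 0.000432), Kcna6 (-0.85, adjusted p = 0.017), Kcnab1 (-1.05, adjusted p = 0.0208) and Kcnk2 (-1.75, adjusted p = 0.0218). Those with positive values included Kcnj16 (2.61 ± 0.45, SE, adjusted p = 0.00012), Kcnd2 (3.56, adjusted p = 0.00233), Kcnj3 (4.51, adjusted p = 0.0109), Kcnt1 (3.36, adjusted p = 0.0211) and Kcnd1 (1.58, adjusted p = 0.0211). Leaving out 1 pool of the zQ175 line ended 4 of these calls. Without wild-type replicate 3 Kcnj3 was at 2.83 (adjusted p = 0.117), and without wild-type replicate 1 Kcnt1 was at 2.49 (adjusted p = 0.0845). Kcnk2 was at -1.22 (adjusted p = 0.0679) without zQ175 replicate 2, and Kcnab1 at -0.86 (adjusted p = 0.0507) without zQ175 replicate 5. In the fit with all pools A330015K06Rik, which shares exon bases with Kcnab1, was at -0.96 (adjusted p = 0.00477). In a single model of all 8 groups 8 were called, and Kcnt1, Kcnk2, Kcnab1 and Kcnd1 missed the threshold. Each line was compared with its own littermates. In the contrast between the lines, line and any batch that follows it cannot be told apart. The age contrast of the genotype difference in the zQ175 line called 0 of 49 by edgeR (7 at an unadjusted p under 0.05; 0 by DESeq2 and by limma voom), against 0.248% of all genes tested (0.0726% positive, 0.175% negative).

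Wild-type pools were also compared between ages, where age and any batch that follows it cannot be told apart. In the R6/2 line, 5 of 48 tested genes differed between 12 and 6 weeks, 4 higher and 1 lower, against 25.4% of all genes tested (12.2% higher, 13.1% lower). Kcnab1 rose by 1.18 ± 0.24 (SE, adjusted p = 0.00235), Kcna2 by 0.59 (adjusted p = 0.00357), Kcnq3 by 0.62 (adjusted p = 0.0161) and Kcna6 by 0.41 (adjusted p = 0.0047). A330015K06Rik, which shares exon bases with Kcnab1, rose by 1.39 (adjusted p = 0.00017). Kcnab2, another beta subunit, fell by 0.51 (adjusted p = 0.0142). The genes that rose with age in wild type were each lower in R6/2 than in wild type at 12 weeks. Both comparisons share the 12-week wild-type pools. In a single model of all 8 groups, 2 were called, and Kcna6, Kcnab2 and Kcnq3 missed the threshold. Cell type markers also differed between these wild-type ages, with 9 of 10 mature oligodendrocyte markers lower and 2 of 6 endothelium markers higher at 12 weeks. Their part in these results was not tested.

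In the zQ175 line 15 of 41 tested genes differed between wild-type pools at 1 year and 12 weeks, 8 higher and 7 lower, against 39.8% of all genes tested (18.4% higher, 21.4% lower). Kcnj10 rose most reliably, from pools at 86.5 to 130 CPM at 12 weeks to 192, 267, 311 and 443 CPM at 1 year, without overlap (log2 fold change 1.50 ± 0.19, SE, adjusted p = 5.42e-05). Also higher were Kcnab1 (0.96, adjusted p = 0.00816), Kcnk2 (1.81, adjusted p = 0.0133) and 2 inward rectifiers, Kcnj13 (3.24, adjusted p = 0.0106) and Kcnj8 (2.92, adjusted p = 0.0184). A330015K06Rik, which shares exon bases with Kcnab1, was not called (0.07, adjusted p = 0.826). Kcnj13 shares 49.1% of its exon bases with Gigyf2 on the opposite strand, at 37.0 CPM, so its reads cannot be told apart there. Without 1-year replicate 4 Kcnj13 was at 2.02 (adjusted p = 0.0755). Without 1-year replicate 2 Kcnj8 was at 2.56 (adjusted p = 0.0585) and Kcnk2 at 1.45 (adjusted p = 0.0582). Each of these 3 calls was thus lost without 1 pool. The 1-year pools of Kcnk2 (1.42 to 5.30 CPM) and Kcnj8 (1.72 to 5.34) still lay above all 12-week pools (highest 1.20 and 0.959). The lower genes included Kcnk5 (-2.01, adjusted p = 0.000264), Kcna3 (-1.86, adjusted p = 0.000314), Kcnk13 (-0.56, adjusted p = 0.000657), Kcna6 (-0.84, adjusted p = 0.00156), Kcnj2 (-1.13, adjusted p = 0.00246) and Kcnu1 (-0.97, adjusted p = 0.0215). The call of Kcnu1 was lost without 1-year replicates 2 or 3 or 12-week replicate 6, at adjusted p from 0.0526 to 0.0589. With the mean level of microglia, endothelium, mural and fibroblast markers as a covariate 3 were called. Of these lists 5 of 8, 3 of 6, 3 of 6 and 4 of 6 markers were higher at 1 year, and 1 endothelium marker was lower. Astrocyte markers, outside the covariate, summed to 269 to 418 CPM at 12 weeks and 492 to 605 at 1 year, with 3 of 8 higher and 1 lower. Their part in the rise of Kcnj10 was not tested.

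Genes that work beside these channels were counted from lists. At 12 weeks in R6/2, 11 of 15 tested genes of potassium transport outside the Kcn family were called, 6 higher and 5 lower. Fxyd6, a regulator of the sodium pump, rose by 4.82 (adjusted p = 1.24e-10), and the pump subunit Atp1b3 fell by 1.26 (adjusted p = 3.53e-08). Of 16 tested partners and anchors of potassium channels 11 were called, 5 higher and 6 lower. Dpp6, which assembles with A-type pores such as that of Kcnd2, rose by 2.5 (adjusted p = 6.32e-05), and Adam23, a receptor of secreted Lgi proteins, by 1.13 (adjusted p = 5.46e-06). Lgi3 fell by 0.68 (adjusted p = 1.37e-06) and the scaffold Dlg1 by 0.75 (adjusted p = 8.06e-05). Of 24 tested other voltage-gated cation channel genes 15 were called, 11 higher and 4 lower. The calcium channel subunit Cacna2d3 rose by 3.15 (adjusted p = 1.32e-07), the sodium channel pore Scn3a by 2.46 (adjusted p = 1.43e-05) and the calcium channel pore Cacna1a by 2.62 (adjusted p = 3.34e-05), while Cacna2d4 fell by 1.06 (adjusted p = 2.12e-05). These shares stand against the 38.1% of all genes called there.

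At 6 weeks the same lists gave 2 of 17 (1 higher, 1 lower), 1 of 17 and 0 of 23 calls by edgeR, the last with 2 genes at an unadjusted p under 0.05, against 4.66% of all genes tested. The partner called was Lrrc26, an auxiliary subunit of the large-conductance calcium-activated channel, which had 8 to 27 counts in the R6/2 pools and 0 in all 5 wild-type pools, so no fitted fold is given. Fxyd6 rose by 1.90 (adjusted p = 0.014) and Atp1b3 fell by 0.68 (adjusted p = 0.000318). In zQ175 the 3 lists gave 0 calls by edgeR at both ages, against 0.0835% of all genes tested at 12 weeks and 0.00669% at 1 year. At an unadjusted p under 0.05 there were 2 of 13, 5 of 14 and 2 of 18 genes at 12 weeks, and 5 of 14, 2 of 14 and 2 of 20 at 1 year.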

How the data were processed

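Striatal cells positive for the PDGFRA-EGFP reporter were profiled as 46 pooled libraries in 8 groups of line, genotype and age. The deposited file is a gene table of expected counts, made with CASAVA, STAR 2.5.2b and RSEM 1.3.0 per the submitters' processing notes. The notes name a human build although all identifiers are of mouse, so the mouse build is not given in the sources used here. Gene names, types and exon lengths were taken from GENCODE M21 (GRCm38), which held 53706 of the 53801 identifiers. The kit does not record strand.

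Expected counts were rounded. Each comparison was fitted on its own groups with edgeR 4.0.16 in R 4.3.3 (filterByExpr, TMM, robust quasi-likelihood fit), and genes with a Benjamini-Hochberg adjusted p under 0.05 over all genes tested were called. Where no tool is named, an adjusted p is that of edgeR. SE was the absolute log2 fold change before edgeR's shrinkage, divided by the square root of the F statistic. The edgeR log2 fold changes printed are those after shrinkage. The procedure was tested on simulated data. Each library pools different mice, so the spread between libraries includes that between litters. No pair of libraries of a group agreed within sampling noise (smallest chi-square per degree of freedom 22.1).

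Alternatives were DESeq2 1.42.0, limma 3.58.1 (voom), DESeq2 size factors, no low-count filter, all groups in 1 fit, other cell type markers or Y-linked transcripts as covariate, replicate number as a block, other membership rules, and leaving out each library. Genes were named as follows. In each genotype comparison the called genes were named, up to 26 by adjusted p, and Kcnj10, Kcnj16, Kcnk1, Kcna1, Kcna2, Kcna6, Kcnd2, Kcnip3, Kcnma1 and Kcnab1 throughout. In interactions and wild-type ages up to 12 called genes were named, for levels the 3 highest of each role, and in each related list up to 4 called genes. Other genes were named after their values were seen. Single-gene results of some genes that this rule would name are not reported here, while counts over all members include them. The members and lists were chosen with earlier results of these data known.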

Additional observations from a re-analysis of the deposited data

Results flagged for a closer look

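Each of the potassium channel genes named was examined in each group of 4 to 7 pools for a highest or lowest pool far from the nearest other pool by Dixon's ratio, which chance exceeds in about 1 in 20 groups. This was so in 33 of 262 groups of values over 33 genes. Values are CPM. Among R6/2 pools at 6 weeks, the values set apart were Kcna6 of replicate 1 (low at 150, next 359), Kcnj13 of replicate 5 (high at 4.44, next 1.83) and Kcnj16 of replicate 4 (high at 12.3, next 7.12). Among R6/2-line wild-type pools at 6 weeks, the values set apart were Kcnip1 of replicate 1 (high at 4.44, next 1.2), Kcnj13 of replicate 4 (high at 6.00, next 1.45) and Kcnj3 of replicate 1 (high at 0.974, next 0.0273). Among R6/2 pools at 12 weeks, the values set apart were Kcnj16 of replicate 7 (low at 15.1, next 27.5), Kcnj2 of replicate 7 (low at 4.89, next 15.2), Kcnj9 of replicate 6 (high at 6.14, next 2.56) and Kcnq5 of replicate 3 (high at 6.68, next 4.19). Among R6/2-line wild-type pools at 12 weeks, the values set apart were Kcna2 of replicate 4 (high at 78.8, next 59.4), Kcnk13 of replicate 2 (low at 244, next 273), Kcnk5 of replicate 2 (low at 8.55, next 13.4), Kcnma1 of replicate 7 (high at 5.71, next 3.11) and Kcnt2 of replicate 3 (high at 2.24, next 0.974). Among zQ175 pools at 12 weeks, the values set apart were Kcna1 of replicate 2 (high at 446, next 267), Kcnip1 of replicate 2 (high at 4.11, next 0.843), Kcnj10 of replicate 4 (high at 146, next 103), Kcnj16 of replicate 2 (high at 5.95, next 2.36) and Kcnk2 of replicate 2 (high at 4.68, next 2.1). Among zQ175-line wild-type pools at 12 weeks, the values set apart were Kcnab2 of replicate 3 (low at 3.79, next 5.19), Kcnh8 of replicate 3 (high at 1.49, next 0.495), Kcnj3 of replicate 3 (high at 1.09, next 0.19), Kcnj9 of replicate 1 (high at 0.32, next 0.0583) and Kcnt2 of replicate 3 (high at 0.874, next 0.264). Among zQ175 pools at 1 year, the values set apart were Kcnd3 of replicate 2 (high at 11.3, next 2.13) and Kcnq5 of replicate 2 (high at 2.58, next 0.647). Among zQ175-line wild-type pools at 1 year, the values set apart were Kcnd2 of replicate 3 (high at 9.96, next 1.49), Kcnh5 of replicate 3 (high at 1.03, next 0), Kcnh8 of replicate 5 (high at 1.52, next 0.094), Kcnip1 of replicate 3 (high at 4.07, next 0), Kcnmb4 of replicate 3 (high at 2.1, next 0) and Kcnt2 of replicate 4 (high at 3.22, next 0.376). Replicate 2 of the zQ175 pools at 12 weeks and replicate 3 of the zQ175-line wild-type pools at 1 year accounted for 4 each, all on the high side. Replicate 3 of the wild-type pools of that line at 12 weeks also accounted for 4.

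The genotype difference changed with age in the R6/2 line for 6 genes, by the interaction test. The values on the log2 scale were -1.21 for Kcnk13, -0.56 for Kcna1, -1.44 for Kcnk5, -0.52 for Kcna2, 1.93 for Kcnj16 and 2.24 for Kcnmb4. It differed between the lines at 12 weeks for 18 genes. The negative values were -2.02 for Kcnk13, -1.91 for Kcnk5, -1.75 for Kcnk2, -1.22 for Kcnu1, -1.05 for Kcna1, -1.05 for Kcnab1 and -0.85 for Kcna6. The positive values were 4.51 for Kcnj3, 3.72 for Kcnh8, 3.64 for Kcnq5, 3.56 for Kcnd2, 3.36 for Kcnt1, 2.95 for Kcnd3, 2.61 for Kcnj16, 2.12 for Kcnmb4, 1.58 for Kcnd1, 1.48 for Kcnma1 and 1.02 for Kcnk1. No explanation of these differences was tested.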

How the results depend on the processing

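No gene called in the main or the alternative fit reversed its direction. A change of sign in a gene called in neither was not counted as a reversal. Of 88 alternatives for the counts of called genes, leaving-out fits aside, 12 moved the count by more than 1.5 times. The cause was not tested unless named. With all 8 groups in 1 fit, which shares the spread between groups, the count went from 31 to 19 for R6/2 at 12 weeks, from 0 to 10 for zQ175 at 1 year, from 6 to 2 for age by genotype in the R6/2 line, from 18 to 8 for line by genotype, and from 5 to 2 for wild-type age in the R6/2 line. With the other cell type markers as covariate it was 16 for R6/2 at 12 weeks, 1 for zQ175 at 1 year and 3 instead of 15 for wild-type age in the zQ175 line. With no filter it was 1 for zQ175 at 1 year and 3 for age by genotype in the R6/2 line. DESeq2 gave 3 for zQ175 at 1 year, and the Y-linked covariate gave 3 for age by genotype in the R6/2 line.

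The replicate numbers do not pair the libraries: deviations of same-numbered libraries correlated between -0.166 and 0.142, and a pair correlated best with its own number in 0 of 5, 1 of 7, 1 of 6 and 0 of 4 cases. With replicate number as a block the counts were 2 and 32 for R6/2 at 6 and 12 weeks, 0 and 0 for zQ175, 4 and 0 for age by genotype, and 13 for line by genotype. Under the block Kcnj10 was called in R6/2 at 12 weeks (-0.42, adjusted p = 0.0442), Kcnh7 was not called at 6 weeks (0.81, adjusted p = 0.093), Kcna1 and Kcnmb4 were not called for age by genotype (adjusted p = 0.0547 and 0.0797), and Kcnt1, Kcnk2, Kcnab1 and Kcnj3 were among the genes not called for line by genotype.

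Leaving out each library in turn gave 2 to 4 genes for R6/2 at 6 weeks and 29 to 32 at 12 weeks. For zQ175 it gave 0 at 12 weeks and 0 to 2 at 1 year (2 without wild-type replicate 3). For age by genotype in the R6/2 line it gave 3 to 8. The count was 3 without R6/2 12-week replicates 1 or 3, wild-type 12-week replicates 3 or 4, R6/2 6-week replicate 3 or wild-type 6-week replicate 1. For age by genotype in the zQ175 line it gave 0 to 2 (2 without wild-type 1-year replicate 3), for line by genotype 13 to 20, and for wild-type age 5 to 6 in the R6/2 line and 12 to 15 in the zQ175 line. Of the fits for single genes, 70 lost the call and 11 gained it against 659 that did neither; among leaving-out fits these numbers were 62, 2 and 1312. The SE of genes at a low level was often larger than that of the abundant genes, and the part of counting error in it was not tested.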
